A study of Mus musculus with 4 samples.

Results

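The nuclear-encoded subunits of the mitochondrial respiratory chain were described in mesenchymal stromal cells (MSCs) of adult mouse bone marrow. Members were the genes whose symbol in the count table carries the standard root of a subunit of complexes I to V or of cytochrome c, with no measured value used. This rule took 87 of the 56980 genes, namely 37 of complex I, 4 of complex II, 9 of complex III, cytochrome c (Cycs), 20 of complex IV and 16 of ATP synthase (complex V). Ndufa4, named after complex I, was placed with complex IV, where its protein is now known to belong. The subunit gene Atp5o was outside the rule because its symbol is joined to an Ensembl identifier in the table.

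The data were 4 RNA-seq libraries, 1 from each of 4 male wild-type C57BL/6J mice of a colony inbred in-house, aged 14 weeks. Each library came from 100 bone marrow cells, sorted as CD51+ PDGFRa+ and as negative for Sca1, CD31, CD45 and Ter119, which removes blood cells, red cell precursors and endothelial cells and keeps stromal cells with the integrin alpha V chain and the PDGF receptor alpha. The study used these libraries to find which ligands and receptors adult MSCs express, in order to predict their pairing with macrophages. All 4 form a single group with no treated or mutant counterpart, so the results are levels, differences between genes within a mouse, and the spread between mice.

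The respiratory chain sits in the inner mitochondrial membrane. Complexes I and II pass electrons from NADH and succinate to ubiquinone, complex III passes them to cytochrome c, and complex IV hands them to oxygen. Complexes I, III and IV pump protons as they do so, and complex V uses the returning protons to make ATP. Most subunits are encoded in the nucleus and imported, while a small set of core subunits is encoded by mitochondrial DNA. Several complex IV subunits exist as isoforms from separate genes, with a form used in most tissues and others typical of heart and skeletal muscle, lung or testis. Undifferentiated marrow stromal cells are commonly described as leaning on glycolysis, with more mitochondrial respiration once they differentiate.

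The libraries held 22738604 to 43545349 counts. Mouse 2 had the fewest genes with a count, 16109 against 18683, 18907 and 18802 in mice 1, 3 and 4. Levels are given in TPM, a unit that divides each gene's count by its length and scales each library to the same fixed sum. The lengths were available for 52125 genes. All 8 markers of marrow stroma were above 1 TPM in every mouse, Cxcl12 at 983, 4329, 2224 and 1079 TPM in mice 1 to 4. The 6 osteoblast markers were also high, with summed levels of 154778 to 231697 TPM, and Bglap, the osteocalcin gene, alone reached 96604, 119827, 55668 and 156730 TPM. Of the markers of cells that the sort should remove, all 6 erythroid genes had a median above 1 TPM and summed to 4980.4, 35.0, 1708 and 358 TPM, with Alas2 at 0 in mice 2 and 4. None of the 6 macrophage and 5 endothelial markers had a median above 1 TPM, with Adgre1, Csf1r, Cdh5 and Kdr at 0 in all mice. Of 6 haematopoietic, B or T cell markers, 1 had a median above 1 TPM, Ebf1 at 5.86, 29.1, 17.6 and 16.8 TPM. Ptprc (CD45), of the same list, had 2, 2, 0 and 50 counts. Of the 6 neutrophil markers, 3 had a median above 1 TPM and Ltf and Ngp were at 0. Adipoq, which marrow stromal cells also express, reached 184, 635, 399 and 185 TPM, while the fat cell genes Plin1, Cfd and Lep were at 0.

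Respiratory chain transcripts were abundant. Of the 87 members, 82 had a median TPM above 1 over the 4 mice, the cutoff that the study's methods use for these libraries, against 22.9% of all genes with a length and 44.2% of protein-coding genes. In every single mouse 81 members were above 1 TPM, against 15.4% of all genes. In 61 members the median was above 100 TPM, and 81 lay above percentile 90 of all genes with a length. The members together took up 25123 ± 1094 TPM (mean ± SD, n = 4), or 2.51% ± 0.109 of each library's TPM and 1.41% ± 0.0639 of its counts. The 5 members without a single count in any mouse were Cox6a2, Cox7a1, Cox7b2, Cox8b and Cox8c, all isoforms of complex IV subunits.

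**Figure D1:**
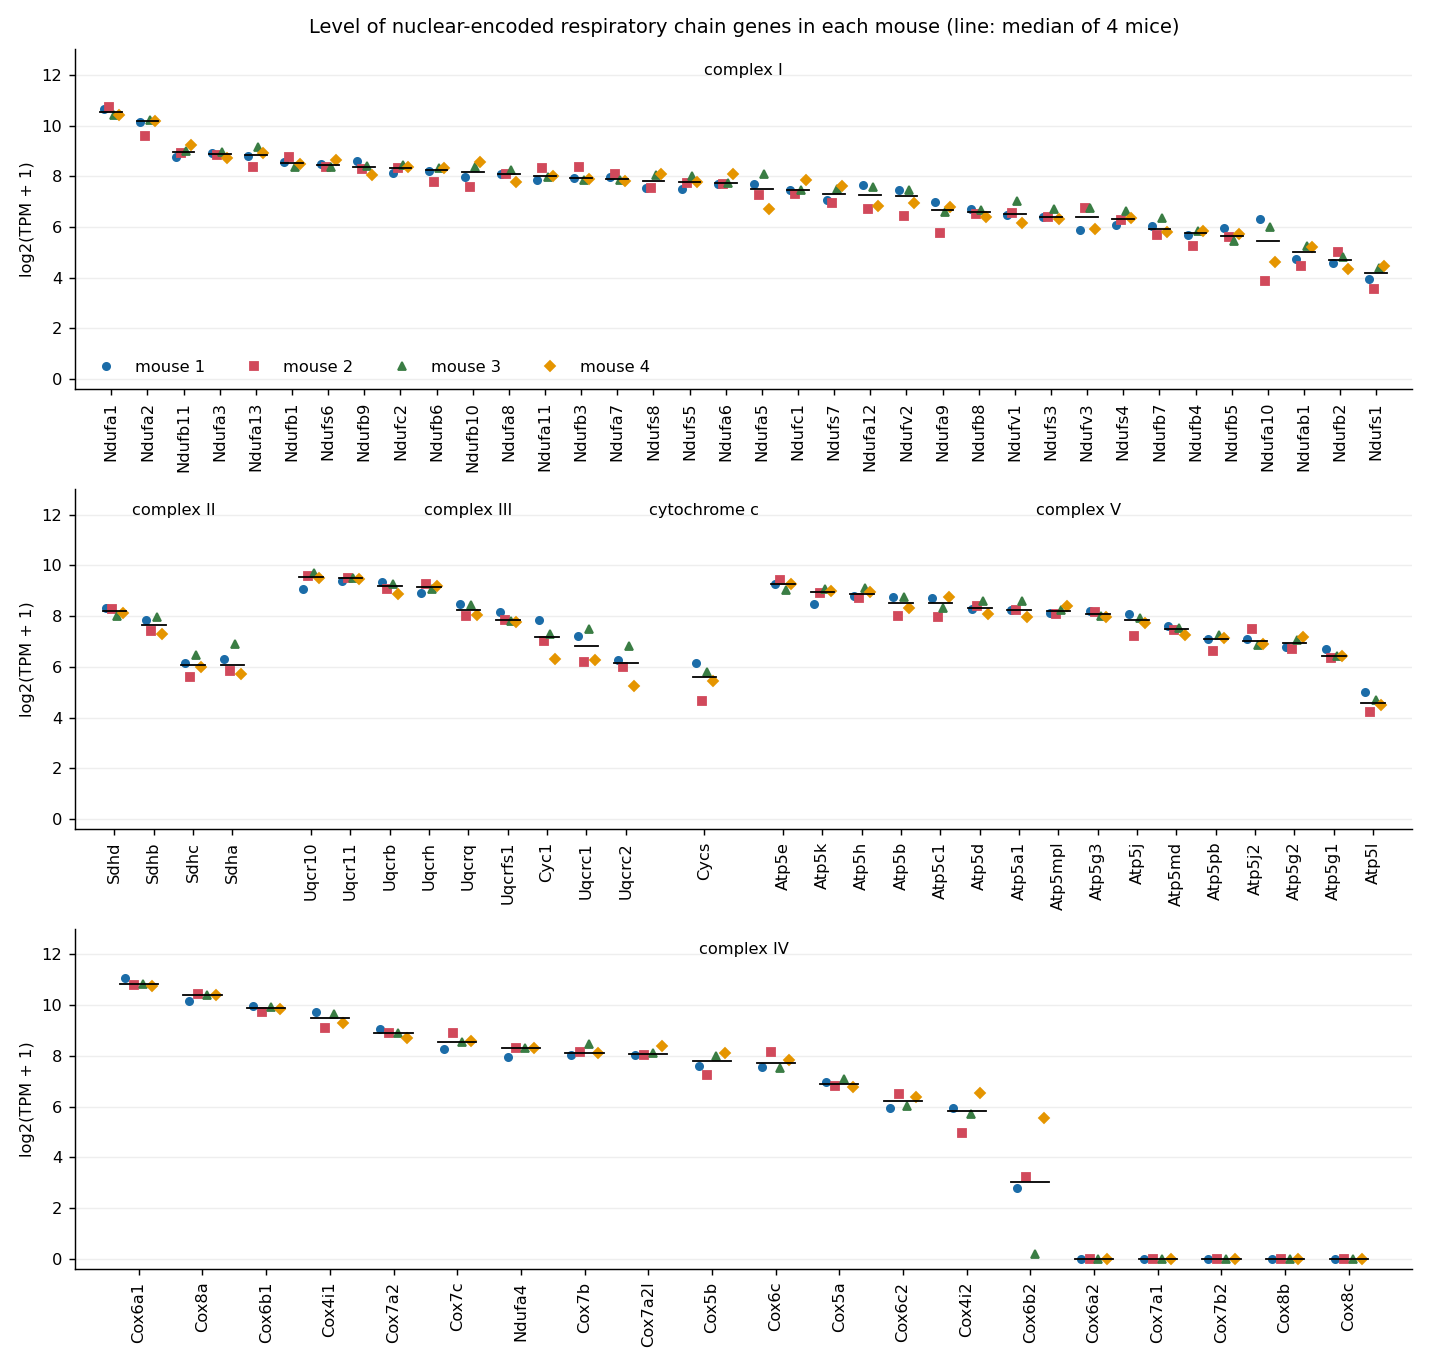
Each point is the log2(TPM + 1) of 1 gene in 1 of the 4 mice, with genes on the horizontal axis ordered by their median within each complex and a line at the median. Most genes hold a tight cluster of 4 points, Cox6b2 spans from 0.157 to 45.8 TPM, and the 5 complex IV isoforms on the right lie at 0 in all mice.

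Complex I, which oxidises NADH, had all 37 nuclear genes above 1 TPM in every mouse. Their medians ran from 17.1 to 1480.2 TPM around a middle value of 181 TPM. Ndufa1, a small accessory subunit encoded on the X chromosome, was the highest of them at 1586, 1696, 1372 and 1374 TPM in mice 1 to 4. Ndufs1, the large iron-sulfur subunit of the NADH-oxidising arm, was the lowest at 14.4, 10.6, 19.8 and 21.2 TPM. These are levels per length of all annotated exons, and Ndufs1 has long annotated exons: per length of its protein-coding transcripts its median was 111 TPM, and Ndufb2 was then the lowest at 30.4 TPM. Ndufa1 kept the highest place on that scale, at 802 TPM.

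Ndufa10, an accessory subunit of the membrane arm, had the widest spread of complex I. It stood at 77.9, 13.8, 62.6 and 23.4 TPM in mice 1 to 4, a coefficient of variation (CV, the SD as a percent of the mean) of 69.2%. Mice 1 and 3 were high and mice 2 and 4 low, with no overlap. Of the core subunits, Ndufv1, which binds NADH and the flavin, had 87.8, 91.7, 129 and 71.0 TPM. The 7 core genes varied more between mice than the 30 accessory genes did, with median CVs of 25.7% and 16.9%. The core genes were also lower, with a middle value of 135 TPM against 227 TPM. Neither the difference in CV nor the part of level in it was tested.

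Complex II, succinate dehydrogenase, is the only complex with no mitochondrially encoded subunit, and each of its 4 genes exceeded 1 TPM in all mice. The membrane anchor Sdhd was the highest at 315, 311, 258 and 277 TPM in mice 1 to 4. The iron-sulfur subunit Sdhb followed at 229, 167, 249 and 158 TPM. Sdha, the flavoprotein that oxidises succinate, was the lowest by its median of 66.6 TPM and the most variable, at 77.7, 55.6, 119 and 51.4 TPM with a CV of 40.9%. The other anchor, Sdhc, was next at 70.7, 47.8, 88.5 and 63.3 TPM, a median of 67.0 TPM. Their order is within the spread, since Sdha was above Sdhc in 3 of the 4 mice. Per length of protein-coding transcripts Sdhb came first at a median of 207 TPM, before Sdhd at 160.5 TPM.

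In complex III, the cytochrome bc1 complex, the small accessory subunits led. Uqcr10 was the highest at 543, 769.8, 835 and 727 TPM in mice 1 to 4. Uqcr11 was the steadiest of all members at 674, 731, 726 and 704 TPM, a CV of 3.68%. The Rieske iron-sulfur protein Uqcrfs1 had 284, 228, 226 and 216 TPM, with mouse 1 above the rest. Cytochrome c1, encoded by Cyc1, had 230.1, 127, 158 and 77.3 TPM, so that mouse 1 was 2.98 times mouse 4. The core proteins varied most, Uqcrc1 at 148, 72.4, 179 and 75.8 TPM and Uqcrc2, the lowest gene of the complex, at 76.2, 62.8, 113 and 36.5 TPM. In both, mice 1 and 3 were above mice 2 and 4. On the coding length Uqcrh, the hinge protein, had the highest median of the complex at 793 TPM, and Uqcrc2 kept the lowest place. The 5 accessory genes had a median CV of 14.4%, against 44.8% in Uqcrc1 and 44.1% in Uqcrc2. They were also higher, with medians of 304 TPM or more against 112 and 69.5 TPM, and the part of level was not tested.

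Cycs, which carries electrons from complex III to complex IV, was among the lower members at 69.1, 24.3, 53.8 and 42.3 TPM in mice 1 to 4. Mouse 2 was the lowest, at 919 counts. Near-identical stretches in 23 other annotated genes covered 35.0% of its longest coding transcript, and only uniquely mapped pairs were counted, so its level is uncertain.

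Complex IV, cytochrome c oxidase, held the highest member of all. Cox6a1, a peripheral subunit, had 2141, 1787, 1832 and 1731 TPM in mice 1 to 4. Cox8a, the smallest subunit, came next in the complex at 1159, 1389.6, 1353 and 1344 TPM, and Cox6b1 had 1002, 845, 977 and 926 TPM. Cox4i1, the regulatory subunit that binds ATP, had 858, 544, 797 and 627 TPM. All of these kept within a narrow range, with the highest mouse of Cox4i1 at 1.58 times the lowest. Cox5a, a subunit on the matrix side, had 123, 111, 137 and 108.3 TPM. Cox5b, its zinc-binding neighbour, had 192, 151, 252 and 274 TPM. The 11 main or only genes of the complex were above 1 TPM in every mouse, with medians from 117 to 1809.5 TPM and a median CV of 11.5%. Over its 15 genes above 1 TPM the complex had a median CV of 14.7%, against 16.1% to 23.8% in the other complexes.

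In complex V the F1 head makes ATP, the c ring turns in the membrane, and a peripheral stalk holds the head still. No gene of its 16 was at or below 1 TPM in any mouse. Atp5e, the small epsilon subunit of F1, was the highest at 618, 687, 519.6 and 615 TPM in mice 1 to 4. The catalytic beta subunit Atp5b had 433, 253, 425 and 314 TPM, with the widest spread of the complex at a CV of 24.7%. The alpha subunit Atp5a1 had 297, 304, 382 and 246 TPM. Atp5l, subunit g of the membrane part, was the lowest at 31.1, 17.5, 24.9 and 21.4 TPM. Its annotated exons add up to 6443 bases against a median of 544 for its coding transcripts, and on the coding length its median was 148 TPM. That gene also has near-identical stretches in 11 other annotated genes over 86.8% of its longest coding transcript. Atp5e was on the coding length the highest of all 87 members at 1396 TPM, before Cox6a1 at 1195 TPM. Outside the rule, Atp5o, a stalk subunit, had 229, 199, 234 and 176 TPM in mice 1 to 4. The inhibitor of the enzyme, Atpif1, had 233, 128, 230.4 and 179 TPM, with the same mice high and low as in Atp5b.

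Summed over members, the level per complex differed little between mice. Complex I summed to 9381 ± 456 TPM (mean ± SD, n = 4), complex IV to 7274 ± 183 TPM, complex V to 4361 ± 210.3 TPM, complex III to 3425 ± 241 TPM, complex II to 635 ± 81.2 TPM and cytochrome c to 47.4 ± 18.9 TPM. This order held in each of the 4 mice, with no overlap between neighbours. It is not an order of protein complexes, since the sums grow with the number of genes, and without the length correction, or on the coding length, complex V came before complex IV. As CPM (counts scaled to library size) they summed to 4103 and 3136, and on the coding length to 7053 and 6537 TPM. As a share of all members, complex I took 36.8% to 37.9% in the 4 mice, complex IV 28.1% to 29.4% and complex V 17.1% to 17.6%. Complex II moved most among the complexes, with 692, 582, 715 and 549.9 TPM in mice 1 to 4 and a CV of 12.8%, against 2.51% in complex IV.

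**Figure D2:**
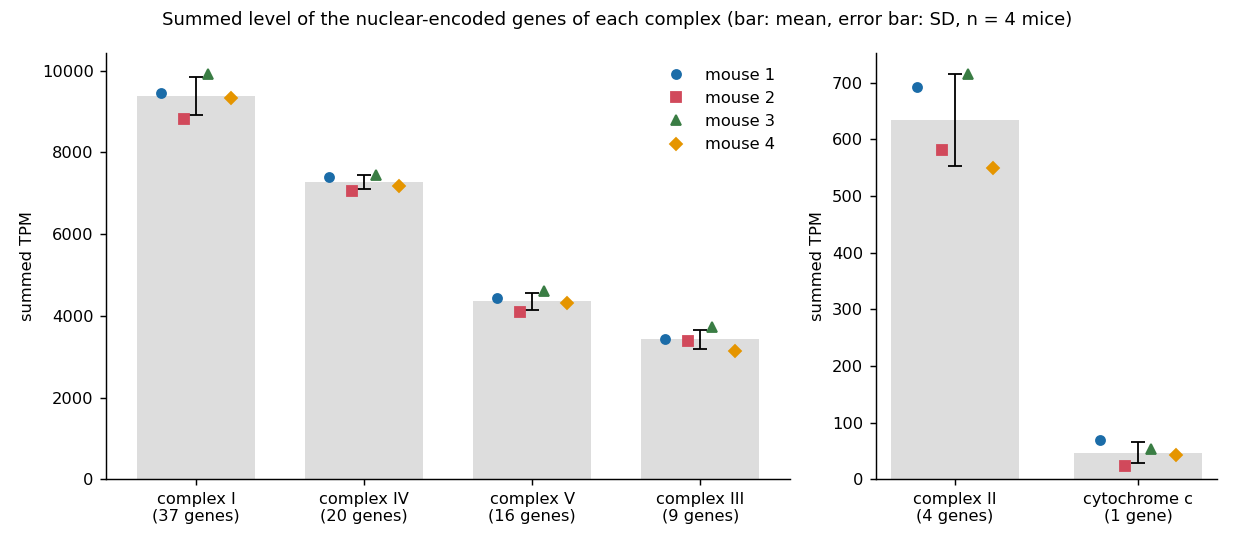
Bars give the mean summed TPM of the nuclear-encoded genes of each complex over 4 mice, error bars the SD, and points the single mice. Complex II and cytochrome c have an axis of their own. Complex I is highest at 9381 TPM, cytochrome c lowest at 47.4 TPM.

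Isoform genes of the same subunit were compared within each mouse. On the TPM scale, the first gene was above the second in 4 of 4 mice in all 11 pairs. Among them, the pairs of the subunit c genes Atp5g3, Atp5g2 and Atp5g1 were ordered as their median TPM is. A higher first gene is therefore partly given by the order in those pairs and was not a prediction. With 4 mice the exact two-sided sign-flip permutation test cannot give a p below 0.13, so each pair had this smallest p = 0.13, also after Benjamini-Hochberg adjustment over the 11 pairs, and no pair could pass 0.05. The sizes of the differences are therefore given on the log2(TPM + 1) scale with their SD over mice.

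Of 7 isoforms known from few tissues, 5 had no count. Cox6a2 and Cox7a1, the isoforms of heart and skeletal muscle, had 0 counts in all mice, and so did Cox8b, which in mouse is found in muscle and brown fat, Cox8c and Cox7b2, both known from testis. A floor of 3 counts per library then bounds the ratio. Cox6a1 was at least 4055-fold higher than Cox6a2 in every mouse, Cox7a2 at least 776-fold higher than Cox7a1, Cox8a at least 1667-fold higher than Cox8b and at least 2121-fold higher than Cox8c, and Cox7b at least 509-fold higher than Cox7b2. These bounds cover counting error only. Of 9 skeletal muscle markers, 5 were at 0 in every mouse, among them Ckm, Myh1 and Mb, while Mylpf had 588, 0, 123 and 0 counts and Atp2a1 0, 0, 3 and 97 counts in mice 1 to 4. All 5 brown fat markers, Ucp1 included, were at 0.

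The other isoforms, Cox4i2 and Cox6b2, had counts in every mouse. Cox4i2, an isoform known from lung and from cells at low oxygen, had 60.5, 30.6, 50.9 and 92.2 TPM in mice 1 to 4, highest in mouse 4 and lowest in mouse 2. Cox4i1 exceeded it by 3.65 ± 0.61 on the log2 scale, and Cox4i2 made up 5.32% to 12.8% of the TPM of the pair. Cox6b2, known as the testis isoform of subunit 6b, had 5.85, 8.36, 0.157 and 45.8 TPM, from 114, 103, 3 and 524 counts. Mouse 4 was far above the rest and mouse 3 was at the floor of 3 counts. Cox6b1 exceeded it by 6.93 ± 2.23, the widest SD of the 11 pairs. Of 5 smooth muscle or pericyte markers, 2 had a median above 1 TPM, and the list summed to 2.96, 29.6, 2.13 and 11.6 TPM in mice 1 to 4. Rgs5 had 0, 29.1, 0 and 2.94 TPM and Cspg4 2.96, 0.558, 2.08 and 7.49 TPM, while Acta2 was at 0 in all mice. Like Cox4i2 and Cox6b2, Cspg4 was highest in mouse 4, but Rgs5 and the list sum were highest in mouse 2, where Cox4i2 was lowest. The part of such cells in either isoform was not tested, and in sorted pools more cells of a type and more RNA per cell cannot be told apart. Ndufa4l2, a relative of Ndufa4 known from low oxygen and outside the rule, had 114, 23.8, 44.5 and 19.8 TPM, highest in mouse 1.

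Some families shared their level among several genes. Cox7a2l had 260.1, 264, 274 and 338 TPM and Cox7a2 531, 476, 481 and 421 TPM in mice 1 to 4. Cox7a2 exceeded Cox7a2l by 0.75 ± 0.30 on the log2 scale. As CPM, with no length, that difference was 0.10, with Cox7a2 higher in 3 of 4 mice. Subunit c of ATP synthase is made from 3 genes whose mature proteins are identical. Atp5g3 was the main source at 292, 288, 255 and 252 TPM in mice 1 to 4. It exceeded Atp5g2 by 1.16 ± 0.32 and Atp5g1 by 1.61 ± 0.15, the latter running from 0.45 as CPM to 2.89 on the longest transcript. Atp5g2 at 109.8, 104, 132 and 142 TPM and Atp5g1 at 104, 80.7, 84.3 and 85.3 TPM differed by 0.45 ± 0.29, and in mouse 1 by only 0.08. As CPM Atp5g1 was the higher of these by 1.08. Cox6c2, at 61.5, 88.3, 63.4 and 82.1 TPM, is annotated as a processed pseudogene and is at least 95% identical to Cox6c over its whole length. Cox6c had 188, 283, 181 and 229.8 TPM, with the same mice high and low, and reads of the pair may be split between them.

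**Figure D3:**
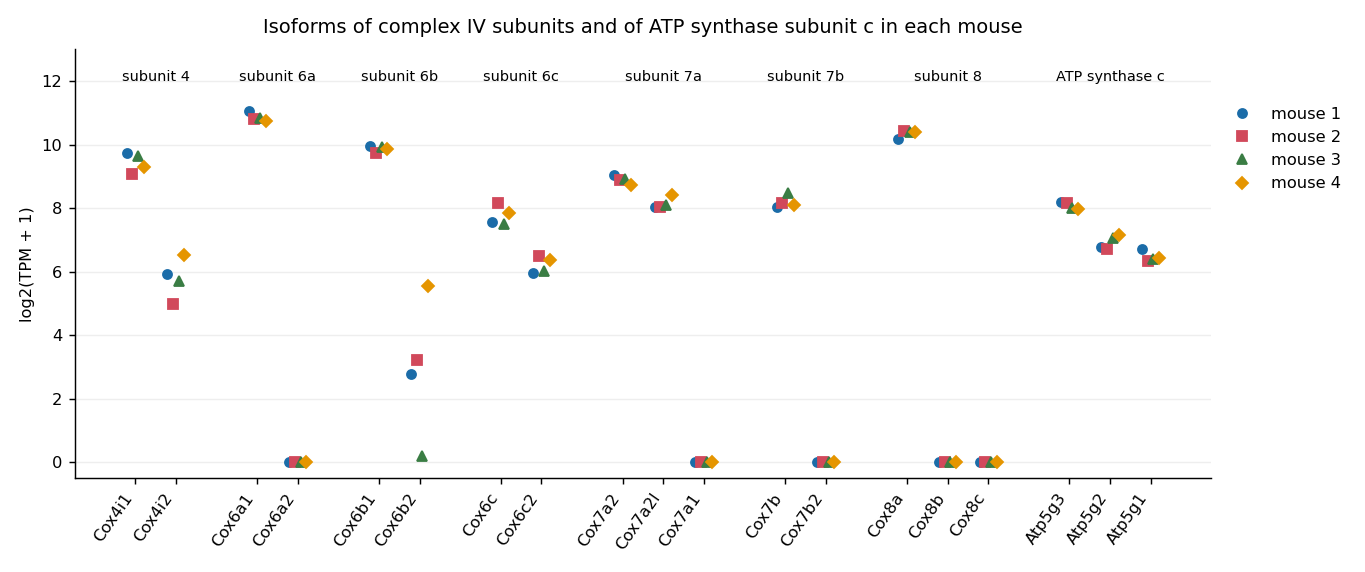
Points give log2(TPM + 1) of each isoform gene in each of the 4 mice, grouped by subunit. The first gene of each group lies above the others in every mouse, Cox4i2 and Cox6b2 are highest in mouse 4, and Cox6a2, Cox7a1, Cox7b2, Cox8b and Cox8c are at 0.

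Promoter sequences were set beside these levels. RefSeq windows of 250 bases before to 50 bases after the start, on build GRCm38.p6, were at hand for 70 of the 87 members. The windows were searched on both strands for 4 motifs: the core of the site of NRF1 (GCATGCGC) and the sites of GABP (CCGGAAG) and YY1 (AAGATGGCG), 3 factors long known for driving respiratory genes, and the TATA box (TATAAA). No match of one motif overlapped a match of another in a member's window. The NRF1 core was in the windows of 11 members, or 15.7%, against 3.05% of all 27025 genes with a window. The GABP site was in 17 members, or 24.3%, against 9.93%, and the YY1 core in 7, or 10%, against 1.64%. The TATA box was in 8 members, or 11.4%, against 15.7%. A match is a string of letters and not a measured site.

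The windows below run from 170 bases before to 20 bases after the start, 5′ to 3′ along the gene, with matches in capitals (CTTCCGG is the GABP site read from the other strand). They show the highest member, the carrier and a catalytic subunit with NRF1 cores, and some of the isoform pairs whose genes lay far apart. The minus strand holds Cox6a1 (chr5:115348939-115349128), Cycs (chr6:50566550-50566739), Cox6b1 (chr7:30626095-30626284), Cox6b2 (chr7:4753075-4753264), Cox8a (chr19:7217597-7217786) and Cox8b (chr7:140900427-140900616), and the plus strand Sdhb (chr4:140961101-140961290).
Cox6a1: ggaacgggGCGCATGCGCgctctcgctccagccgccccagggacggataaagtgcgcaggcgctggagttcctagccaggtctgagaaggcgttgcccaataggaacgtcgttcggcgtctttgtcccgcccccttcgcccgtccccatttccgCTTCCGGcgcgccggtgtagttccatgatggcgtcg
Cycs: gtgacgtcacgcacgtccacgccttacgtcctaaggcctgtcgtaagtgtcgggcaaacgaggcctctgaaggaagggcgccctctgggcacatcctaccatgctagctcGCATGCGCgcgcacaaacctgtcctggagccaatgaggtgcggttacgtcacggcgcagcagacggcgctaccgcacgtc
Sdhb: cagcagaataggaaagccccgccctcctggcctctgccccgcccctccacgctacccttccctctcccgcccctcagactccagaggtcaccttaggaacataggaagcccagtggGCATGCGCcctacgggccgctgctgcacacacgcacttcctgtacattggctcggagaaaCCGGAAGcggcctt
Cox6b1: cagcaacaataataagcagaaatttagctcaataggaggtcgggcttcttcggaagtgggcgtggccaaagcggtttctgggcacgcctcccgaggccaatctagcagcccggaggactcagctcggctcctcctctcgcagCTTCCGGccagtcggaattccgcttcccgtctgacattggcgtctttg
Cox6b2: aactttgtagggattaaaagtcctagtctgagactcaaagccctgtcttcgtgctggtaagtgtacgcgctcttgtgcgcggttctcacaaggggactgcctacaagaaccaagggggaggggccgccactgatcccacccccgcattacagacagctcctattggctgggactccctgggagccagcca
Cox8a: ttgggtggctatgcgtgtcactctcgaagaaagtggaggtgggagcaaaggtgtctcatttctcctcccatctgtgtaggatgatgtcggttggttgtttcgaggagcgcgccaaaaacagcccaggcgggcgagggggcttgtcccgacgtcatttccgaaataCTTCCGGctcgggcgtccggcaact
Cox8b: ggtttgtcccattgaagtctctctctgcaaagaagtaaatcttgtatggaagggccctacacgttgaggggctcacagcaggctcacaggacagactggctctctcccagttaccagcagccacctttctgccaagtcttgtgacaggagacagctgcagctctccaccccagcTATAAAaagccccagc

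Cox6a1 has the NRF1 core 162 bases before its start on the minus strand and 160 bases before it on the plus strand, as overlapping matches, and a GABP site 16 bases before it. Cycs has the NRF1 core 60 bases before its start. Sdhb has it 54 bases before and a GABP site 7 bases into the transcript. In the pair of subunit 6b, the higher gene Cox6b1 has a GABP site 28 bases before its start. Cox6b2, lower but with counts in every mouse, has none of the 4 motifs. In the pair of subunit 8, Cox8a has a GABP site 5 bases before its start and another 33 bases after it, past the printed window. Cox8b, at 0 counts in all mice, has a TATA box 5 bases into the annotated transcript instead. The printed pairs are a choice, and other pairs differ. No match was found for Cox7a2 or Cox7b, each the higher gene of its pair, though some members had no window. Cox7b2, at 0 counts, had a TATA box 221 bases before its start. With these few pairs, promoter and level were not tested against each other.

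The spread between mice was small for genes at these levels. The median CV of the 82 members above 1 TPM was 17.4%, and 50 of them, or 61.0%, had a CV under 20%, against 12.0% of all 11948 genes above 1 TPM. Lower genes vary more between mice, so genes of like level were set side by side. Among genes with a mean of 100 to 1000 TPM, 38 of 56 members were under 20%, or 67.9%, against 38.2% of all 911 genes of that class. Their median CVs were 15.8% and 23.5%. Among genes of 10 to 100 TPM, 8 of 22 members were under 20%, or 36.4%, against 14.3%, with median CVs of 25.4% and 42.0%. In 69 of the 82 members, or 84.1%, the highest mouse was less than 2 times the lowest, against 24.6% of all genes above 1 TPM. Among genes of 100 to 1000 TPM it was 51 of 56 members, or 91.1%, against 65.8%. Read counting alone would give a median CV of 1.44% at the members' counts, but reads amplified from 100 cells are not independent molecules, and noise from sampling cells and from amplification was not measured.

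**Figure D4:**
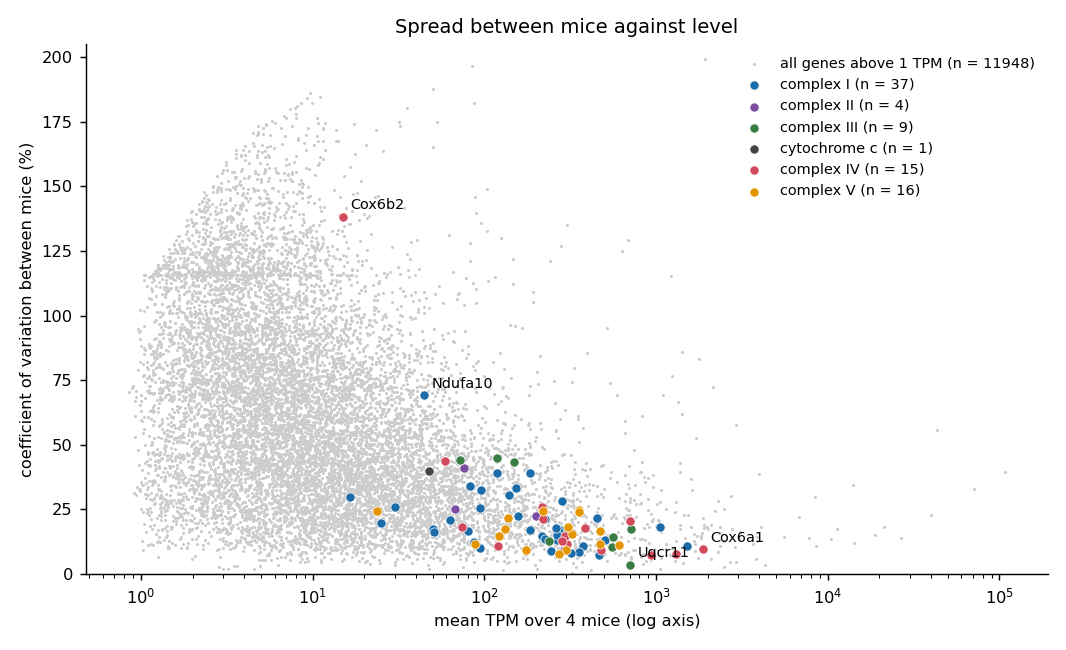
Each grey point is 1 of the 11948 genes with a median above 1 TPM, with the mean TPM over 4 mice on a log axis and the CV between mice on the vertical axis, and coloured points are the 82 members above 1 TPM by complex. Most members lie in the lower part of the cloud at their level, with Cox6b2 at 138% and Ndufa10 at 69.2% above it and Uqcr11 lowest at 3.68%.

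Across these 82 members, CV and median TPM had a Spearman rho of -0.58. This is a correlation across genes of the same 4 libraries, which share depth and length and are not independent replicates. The steadiest gene of each complex was Ndufa3 at 7.35%, Sdhd at 9.38%, Uqcr11 at 3.68%, Cox6b1 at 7.37% and Atp5g3 at 7.79%. Cytochrome c stood at 39.9%.

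Mouse 2 was the lowest of the 4 mice for 32 of the 82 members, or 39.0%, against 35.0% of all genes above 1 TPM, and mouse 3 was the highest for 29, or 35.4%, against 29.7%. The median deviation of the members from each gene's mean over mice was 0.03, -0.09, 0.15 and -0.05 on the log2(TPM + 1) scale in mice 1 to 4, and that of all genes above 1 TPM was 0.08, -0.06, 0.22 and -0.10. Under TMM scaling, which moved all genes in mouse 3 to 0.12, the members stood at 0.03 there. In mouse 4 they then stood at 0.03, with the sign turned, and all genes at -0.02.

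Mice 1 and 3 also had the deeper libraries, 43545349 and 42747050 counts, and mice 2 and 4 the shallower, 26050230 and 22738604. Both deeper libraries lay above both shallower ones in 27 of the 82 members, or 32.9%, against 27.6% of all genes above 1 TPM. The reverse held in 6, or 7.32%, against 12.1%. All of these shares lie near the background. Cycs, Cyc1, Uqcrc1, Uqcrc2, Sdha, Sdhb, Sdhc, Cox4i1 and Atp5b were among the 27, and Cox6c, Cox7c, Uqcrh and Ndufa11 among the 6. The erythroid marker sum was likewise higher in mice 1 and 3 than in mice 2 and 4. The part of depth and of erythroid RNA in these differences was not tested. In 4 of the 82 members, Ndufa2, Ndufb3, Ndufa6 and Ndufa4, 1 mouse stood apart from the others by Dixon's criterion, against 5.75% of all genes above 1 TPM.

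The 13 subunits encoded by mitochondrial DNA were all above 1 TPM in every mouse and summed to 43148, 34047, 39793 and 41094 TPM in mice 1 to 4. That was 1.57 ± 0.132 times the sum of the 87 nuclear genes (n = 4), lowest in mouse 2 at 1.42 and highest in mouse 1 at 1.69. They fell into separate ranges. Cytochrome b (mt-Cytb) was the highest at 15297, 11657, 14887 and 14950.1 TPM, and mt-Nd1, mt-Nd2, mt-Nd4, mt-Nd5, mt-Nd6 and mt-Co1 had medians of 1713 to 10838 TPM. The other 6, mt-Co2, mt-Co3, mt-Atp6, mt-Atp8, mt-Nd3 and mt-Nd4l, had medians of only 11.9 to 53.5 TPM. The lowest, mt-Nd3, had 10.9, 12.9, 9.48 and 13.9 TPM. Of these 6, all but mt-Atp8 had near-identical stretches in other annotated genes over 99.0% or more of their length. Their longest stretch was 99.7% to 100% identical for mt-Nd3, mt-Nd4l, mt-Co3 and mt-Atp6, and 95.9% for mt-Co2. In the high range such stretches covered mt-Co1 over 100%, mt-Nd4 over 63.6%, mt-Nd5 over 52.3% and mt-Nd2 over 49.1%. There the longest stretch was 97.6%, 100%, 95.2% and 96.7% identical, in the same order. For mt-Atp8, mt-Cytb, mt-Nd1 and mt-Nd6 none was found. Read pairs that map to several places in the genome were not counted, so both sums and their ratio leave such pairs out. The part of such copies in the low values and in the ratio was not tested.

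Assembly factors, which build the complexes without staying in them, were lower than the subunits per exon length. Of 55 factors in the table, 53 had a median above 1 TPM, but only 39 were above 1 TPM in every mouse, and their median level was 16.7 TPM against 215 TPM over the 87 members. The median CV of the 53 factors was 43.2%, beside 42.0% for all genes of 10 to 100 TPM. The comparison is loose, since some of these factors had means below or above that class. For complex I, Ndufaf8 was the highest at 60.0, 96.0, 85.3 and 77.4 TPM in mice 1 to 4 and Nubpl, which delivers iron-sulfur clusters, the lowest at 0, 11.7, 2.16 and 1.19 TPM. For complex II, Sdhaf4 led at 54.8, 61.1, 65.5 and 76.2 TPM and Sdhaf3 was last at 4.18, 4.23, 5.70 and 1.80 TPM. For complex III, Uqcc2 led at 243, 225, 278 and 320.1 TPM, with Ttc19 last at 0.584, 11.4, 2.30 and 4.78 TPM.

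For complex IV, which has the most factors, Cox14 was the highest at 432, 201, 439 and 284 TPM in mice 1 to 4. Pet117 was at 0 counts in all mice, and the copper chaperone Sco2 had 0.408, 2.44, 0.462 and 0.154 TPM. Some factors were missing from single mice. Cox10, an enzyme of heme A synthesis, had 21.9, 0.0592, 37.5 and 12.7 TPM, near 0 in mouse 2 only. Cox11, Cox18 and Coa4 had no count in mouse 2, and Taco1, an activator of mt-Co1 translation, none in mice 1 and 2. Mouse 2 also had the fewest genes with a count over the whole table, 16109. The part of this in the missing factors was not tested. For complex V, Tmem70 led at 110.1, 119, 85.7 and 32.9 TPM. Atpaf1, a chaperone of the F1 beta subunit, was last at 3.28, 0, 5.61 and 1.69 TPM. Of the 53 factors with a median above 1 TPM, 9 were at 0 in at least 1 mouse, beside 15.3% of all 11948 genes above 1 TPM. None of the 82 members above 1 TPM was, and Cox6b2 in mouse 3 was the only one at or under 3 counts. That background is not matched for level, since 6284 of its genes had a mean of 1 to 10 TPM, a class that held no member.

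Regulators of respiratory genes were mostly low. Of 20 listed, 16 had a median above 1 TPM, and the median level was 6.35 TPM. Chchd2, which acts in mitochondria and on the promoter of Cox4i2, was the highest at 475, 358, 551 and 391 TPM in mice 1 to 4. The 3 factors whose motifs were searched for above were all measured. Nrf1 had 14.0, 7.19, 4.69 and 6.28 TPM, highest in mouse 1. Gabpa, the DNA-binding chain of GABP, had 2.82, 4.90, 11.4 and 7.03 TPM, highest in mouse 3, and Yy1 had 20.998, 17.2, 14.3 and 18.5 TPM. Tfam, which packs and transcribes mitochondrial DNA, was even among mice at 10.7, 10.3, 11.9 and 12.2 TPM. The 4 regulators at or under 1 TPM were Ppargc1a (PGC-1 alpha), with 0 counts in all mice, its relative Ppargc1b, and the nuclear receptors Esrra and Esrrg. Ppargc1b had 0, 0, 0.812 and 0.825 TPM and Esrra 0.751, 0, 2.40 and 0 TPM. Esrrg had a single count, in mouse 2.

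All 14 enzymes of the TCA cycle, which feeds complexes I and II, were above 1 TPM in every mouse. Their median level of 39.2 TPM lay between those of the assembly factors and the subunits. Idh2 was the highest at 169.8, 76.1, 215 and 136 TPM in mice 1 to 4 and Suclg2 the lowest at 4.45, 8.32, 7.54 and 3.47 TPM. Among 22 carriers and other partners of the chain, 18 had a median above 1 TPM. The ADP/ATP carrier Slc25a5 was the highest at 957, 823, 1207 and 774 TPM. Ucp1 and Cyct, the testis cytochrome c, were at 0, Ucp3 had 0, 0, 0 and 1 counts, and Aox1 had 0.491, 0.724, 0.479 and 1.48 TPM.

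**Figure D5:**
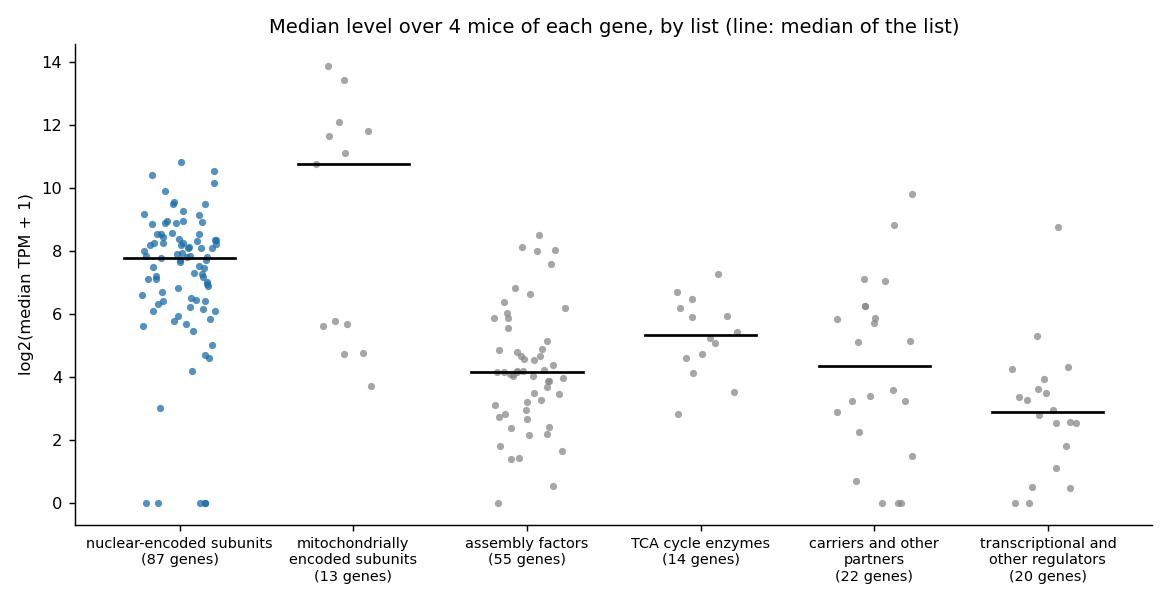
Each point is the log2(median TPM + 1) of 1 gene over the 4 mice, grouped by list, with a line at the median of the list. The nuclear-encoded subunits have a median of 215 TPM, above the assembly factors at 16.7 TPM, while the mitochondrially encoded subunits split into a high and a low range.

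Some counts are less certain than others. In 27 members, 20% or more of the longest coding transcript has a stretch of 100 bases or more at 95% identity in another annotated gene, and 30 members share exonic bases with a neighbouring gene, 11 of them 10% or more. Counting used no strand option, so reads of opposite genes that overlap cannot be told apart. Among the 16 pseudogene rows named after members, the counts came to 0.197% to 0.283% of the members' counts.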

How the data were processed

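RNA of 100 sorted MSCs from each of 4 mice was sequenced. Per the labels and the study's methods, the authors demultiplexed with bcl2fastq 2.20.0, aligned read pairs to GRCm39 with STAR 2.7.10, and counted uniquely mapped pairs on Ensembl exons with featureCounts (Subread 1.6.5) without a strand option. They deposited raw counts per gene for each mouse, with no normalization.

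Counts were turned into TPM here with merged exon lengths from GENCODE M21, which is on GRCm38. No GRCm39 annotation was used here, so 4855 genes had no length and recent changes of gene models are missed. Reads from long annotated exons that the cells do not use would bias a level per length, hence the coding length alternative. The cutoff was a median of 1 TPM and the pseudocount 1. Isoform pairs were tested within mice with the exact sign-flip permutation test, two-sided, checked on simulated data. edgeR 4.0.16 gave the TMM factors for an alternative scaling, BLAST 2.17.0 the near-identical copies and bedtools 2.31.1 the shared exons. Python 3.11.15, numpy 2.4.6, scipy 1.17.1, pandas 2.3.3, matplotlib 3.10.9 and R 4.3.3 were used. Copies were searched among annotated transcripts only.

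Named with every mouse were, per complex, the genes with the highest and lowest median and the highest CV, the core subunits, all isoform genes, genes at or under 1 TPM, and the highest and lowest gene of each list. Cox10, Cox11, Cox18, Coa4, Taco1, Uqcr11 and other names beyond that were chosen after their values were seen. Some genes are not reported here by name, in the text or the plots. The members and lists were chosen with earlier results of these data known. Alternatives were other lengths, scalings, denominators, pseudocounts and filters, and leaving out each mouse. Libraries held 22738604 to 43545349 counts, and floors cover counting error only.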

Additional observations from a re-analysis of the deposited data

Results flagged for a closer look

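In 15 values 1 mouse lay far from the other 3, measured as its gap to the nearest mouse divided by the range of all 4, above Dixon's critical value. By chance about 1 in 20 such groups of 4 pass. Of the members above 1 TPM, 4 of 82 passed. Ndufa2 was low in mouse 2 with 1127, 774, 1180.4 and 1159 TPM in mice 1 to 4 and a gap of 0.869. Ndufb3 was high in mouse 2 with 244, 331, 233 and 239.6 TPM and a gap of 0.888. Ndufa6 was high in mouse 4 with 207, 208, 211 and 269.6 TPM and a gap of 0.933. Ndufa4 was low in mouse 1 with 249, 319, 320.3 and 315 TPM and a gap of 0.925.

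Of 21 sums over complexes and their parts, that of the other isoforms of complex IV passed, high in mouse 4 with 388, 391, 388 and 558 TPM and a gap of 0.981. Cox4i2, Cox6b2 and Cox7a2l were each highest there. None of the 11 isoform pairs passed.

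Of 114 genes of the other lists, 10 passed. Mouse 2 was low for mt-Cytb, Coa7, Cmc1, Coq7 and Sucla2, with gaps of 0.887, 0.830, 0.868, 0.871 and 0.959, and high for Pet100 with 0.918. Mouse 3 was high for Sco1, Fmc1 and Dld, with gaps of 0.946, 0.887 and 0.898. Mouse 4 was high for Chchd10, at 0, 0, 2.28 and 27.2 TPM with a gap of 0.916.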

How the results depend on the processing

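No paired analysis was possible because all 4 libraries form 1 group with no other group to pair them with, and only genes within a mouse were paired. The count of 82 members above 1 TPM stayed within 1.5 times under all 14 alternatives tried. Of the pair differences, 118 of 119 recomputed values kept their direction, and Atp5g2 over Atp5g1 turned to -1.08 as CPM. Some small differences moved with the length used. As CPM Cox7a2 over Cox7a2l was 0.10, at 3 of 4 mice, and Atp5g3 over Atp5g1 0.45, while on the longest transcript Atp5g3 over Atp5g1 was 2.89 and Atp5g2 over Atp5g1 1.54. The sums for complexes I, III, IV, V and all members were 10064, 3674, 7804, 4679 and 26953 TPM without mitochondrially encoded genes in the denominator, 6638, 1361, 5257, 3263 and 17155 TPM without members with copies, 8622, 3869, 6537, 7053 and 26712 TPM on the coding length, an alternative chosen after seeing the data, and 4582, 1650.1, 3136, 4103 and 14101 as CPM. Cytochrome c was 27.6 TPM on the coding length and 67.5 CPM, and complex V 5427 TPM on the longest transcript. The median CV of all genes was 47.6% over genes above 0 in every mouse. The members' deviation was -0.0011 in mouse 1 and 0.0093 in mouse 4 on the coding length, and 0.032 in mouse 3 and 0.034 in mouse 4 under TMM scaling, so the small deviations of mice 1 and 4 have no stable sign.

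Leaving out each mouse in turn left 82 members and gave 9199 to 9568 TPM for complex I, 608 to 663 for complex II, 3323 to 3519 for complex III, 7217 to 7346 for complex IV and 4282 to 4449 for complex V. The median CV ran from 15.9% to 19.8% for members and from 43.5% to 50.4% for all genes. The deviations ran from -0.022 to 0.079 in mouse 1, -0.10 to -0.06 in mouse 2, 0.08 to 0.16 in mouse 3 and -0.04 to -0.02 in mouse 4. Where not given by the alternative's construction, the cause was not tested. With 4 mice and 1 group, no test here could pass 0.05.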

Other observations

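Members were split by the length of their coding transcripts, with no test. Members with coding transcripts of 1000 bases or more deviated by 0.12, -0.10, 0.25 and -0.13 on the log2(TPM + 1) scale in mice 1 to 4, and shorter members by 0.01, -0.06, 0.12 and -0.0034. For all protein-coding genes above 1 TPM the same split gave 0.12, -0.05, 0.30 and -0.17 and 0.10, -0.10, 0.24 and -0.09. In both sets the longer genes were farther from 0 in mice 1, 3 and 4. In mouse 2 this held for the members only. Across the 82 members the CV was higher at longer coding transcripts with a Spearman rho of 0.37 and the level was lower at longer lengths with -0.33, over genes of the same 4 libraries.

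Relatives of members outside the rule had low levels. Ndufs6b had 12.7, 17.6, 11.5 and 14.5 TPM, Ndufb4c 14.3, 7.38, 10.98 and 14.1 TPM and Ndufa11b 3.08, 5.30, 3.82 and 4.79 TPM in mice 1 to 4, and Ndufb11b was at 0 counts in all mice.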
